A study of Mus musculus with 2207 samples.

Results

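The oligodendrocyte nuclei of the 384-well plates were compared between *Ehmt1*Δ/+ mice and their WT controls. A nucleus was a member when its label gave the cell type oligodendrocyte and the condition WT or *Ehmt1*Δ/+ in the 384-well format, which gave 69 WT and 46 *Ehmt1*Δ/+ nuclei out of 397 oligodendrocyte nuclei and 2207 nuclei in the study. *Ehmt1*Δ/+ mice carry 1 deleted allele of *Ehmt1*, the change behind Kleefstra syndrome. Both groups were on a C57BL/6 background (C57BL6/J in the study's methods), 14 weeks old, and had received 2 doses of tamoxifen of 100 mg/kg each when 3 weeks old. Both also carried the inducible transgene *Ehmt1* iTg without the *CamKII-CreER* driver, so that the genotypes read *Ehmt1*+/+; *Ehmt1* iTg and *Ehmt1*Δ/+; *Ehmt1* iTg. This follows the labels, whereas the study's text describes its single-nucleus genotypes as all carrying *CamKII-CreER*, so whether the driver was absent in these 2 groups could not be settled. Each genotype was 1 pool of nuclei from 3 mice. The labels do not say from which mouse a nucleus came, so a pool counts as 1 sample and no test between these 2 pools is given. All WT nuclei carry 1 plate code in their names and all *Ehmt1*Δ/+ nuclei another, so plate code and genotype cannot be told apart here.

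Another 4 pools held oligodendrocyte nuclei of the same strain, tissue, age and tamoxifen treatment. In the CreER pair, both pools carried *Ehmt1* iTg with *CamKII-CreER*, whose promoter is active in forebrain neurons. There, 71 nuclei with intact *Ehmt1* (iTg) stood against 67 nuclei with the deletion (*Ehmt1*Δ/+; iTg). All of them carry the same plate code as the 384-well *Ehmt1*Δ/+ nuclei. In the 96-well pair, 73 WT nuclei stood against 71 *Ehmt1*Δ/+ nuclei, with no transgene in the labels. These pairs share no pool with the 384-well pair and show which of its differences recurred.

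Oligodendrocytes wrap axons in myelin, a stack of membrane rich in cholesterol and galactolipids that is held together by proteins such as myelin basic protein. *Ehmt1* encodes GLP, which works with its partner G9a to place dimethylation on lysine 9 of histone H3, a mark of silent chromatin. In the oligodendrocyte lineage, repressive methylation of this lysine accompanies the switch from precursor to myelinating cell.

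The expression unit was RPKM, the reads of a gene scaled to its length and to the total reads of the nucleus, so a level is relative to all RNA read in that nucleus. Depth was low and alike in both pools. The reads per nucleus, recovered from the steps of the RPKM values, had a median of 50371 (19312 to 176425) in WT and 49635 (20234 to 205310) in *Ehmt1*Δ/+ nuclei. A nucleus held values above 0 for a median of 5004 genes in WT and 4770 in *Ehmt1*Δ/+ nuclei. The 96-well oligodendrocyte nuclei were deeper, with medians of 441701 and 478605 reads. Comparisons were therefore limited to 7268 well detected genes, those above 0 in at least 25% of nuclei on the average of both pools. A ratio is that of the pool means after adding 0.1 RPKM, so ratios of genes with low levels are understated.

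The nuclei carried the defining genes of their label. All 12 oligodendrocyte marker genes were well detected, and none differed by 2-fold. Their summed mean level was 3838 RPKM in WT and 4043 RPKM in *Ehmt1*Δ/+ nuclei, against 24.3 and 19.04 RPKM in the 16 WT and 19 *Ehmt1*Δ/+ microglia nuclei of the same plates. The 10 microglia markers summed to 7.26 and 9.96 RPKM in the oligodendrocyte nuclei against 2975 and 2758 RPKM in microglia, and 7 of the 10, among them *Ctss*, *P2ry12* and *Tmem119*, were at 0 in both oligodendrocyte pools. The 12 neuron markers summed to 15.5 and 12.8 RPKM, near the 18.6 and 15.2 RPKM of the microglia nuclei. The 8 astrocyte markers summed to 14.2 and 15.7 RPKM, the 8 precursor markers to 4.30 and 2.20 RPKM, and the 6 endothelial markers to 0.644 and 0.184 RPKM. Oligodendrocytes made up 18.6% of the 370 WT nuclei sorted and kept (exact 95% binomial interval 14.8% to 23%) and 12.4% of the 371 *Ehmt1*Δ/+ nuclei (9.22% to 16.2%). The intervals overlapped, which does not show that the shares were equal. Such intervals cover counting error only.

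Most well detected genes lay close to equal levels. The log2 ratio of *Ehmt1*Δ/+ to WT had a median of -0.01 and an SD of 0.52 over the 7268 genes, and 90% of the genes lay between -0.86 and 0.87. At least 2-fold higher in *Ehmt1*Δ/+ nuclei were 3.34% of the genes, and at least 2-fold lower were 3.1%. These shares followed detection. Of the 1817 genes found in the fewest nuclei 15.03% passed 2-fold in either direction, and of the 1817 found in the most nuclei 0.826% did. With 1 pool a genotype, a single 2-fold ratio therefore has no replicate behind it, and the genes that repeated in the other pairs are described first. The plot of ratio against level shows *Cacna1b* far above all other genes, the mitochondrial RNAs as a group above the line of 2-fold, and the myelin genes on the line of equal levels.

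**Figure D1:**
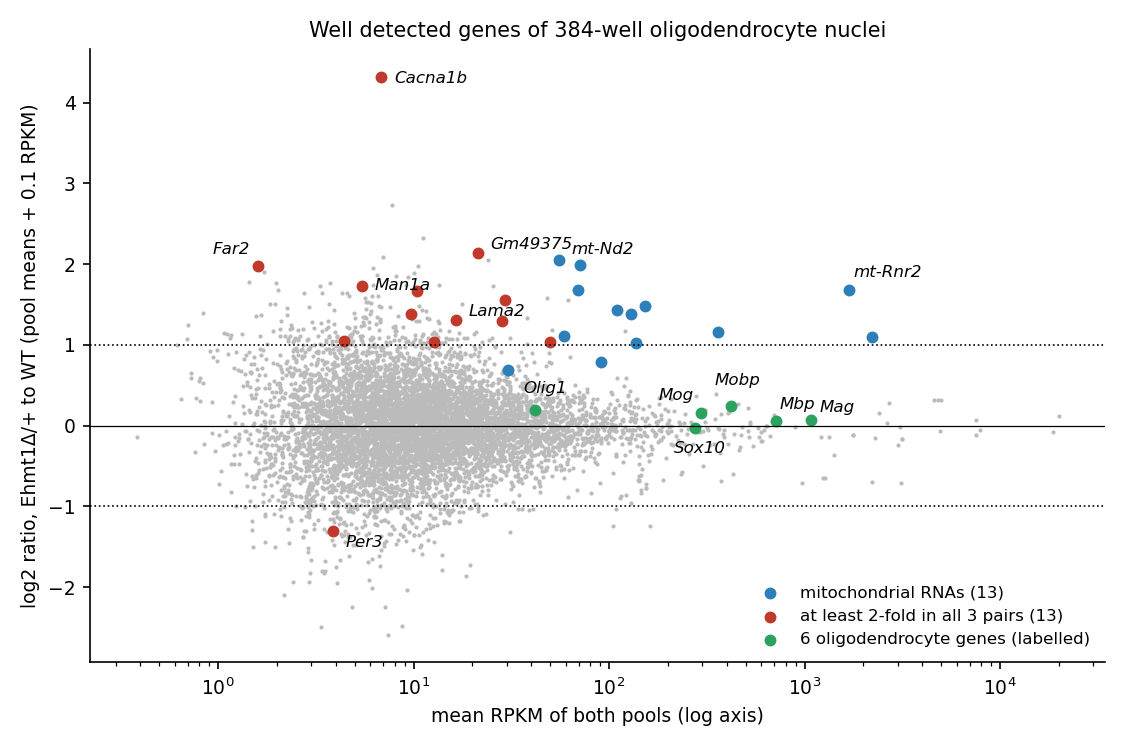
Log2 ratio of *Ehmt1*Δ/+ to WT (y axis) against the mean RPKM of both pools (x axis, log scale) for the 7268 well detected genes of 384-well oligodendrocyte nuclei, with dotted lines at 2-fold. *Cacna1b* lies at 4.32, the 13 mitochondrial RNAs (blue) between 0.70 and 2.05, and 6 oligodendrocyte genes (green) near 0.

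Promoters of 4 genes on which the results turn are shown, since these genes were higher with the deletion in all 3 pairs, and were searched for the motif CG, which reads the same on both strands. Each run is the RefSeq promoter window of 300 bases in GRCm38.p6 (250 bases before to 50 after the annotated start), written 5′ to 3′ on the strand of the gene, with every CG in capitals. *Cacna1b*, the calcium channel gene beside *Ehmt1*, and *Gria2*, a glutamate receptor gene, have windows rich in CG. *Lama2*, a laminin gene, has a window with almost none, and 9330111N05Rik, the longest noncoding RNA of a run of genes on chromosome 13, lies near the middle of all promoters.
*Cacna1b* (chr2:24763103-24763402, minus strand): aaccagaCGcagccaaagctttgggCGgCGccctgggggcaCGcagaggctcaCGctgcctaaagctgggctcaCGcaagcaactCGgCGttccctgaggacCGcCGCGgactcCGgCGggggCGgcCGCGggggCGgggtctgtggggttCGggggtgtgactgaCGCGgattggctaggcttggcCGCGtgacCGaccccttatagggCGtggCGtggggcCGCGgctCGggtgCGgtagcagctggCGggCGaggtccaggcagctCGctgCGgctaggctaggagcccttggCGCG
*Gria2* (chr3:80802786-80803085, minus strand): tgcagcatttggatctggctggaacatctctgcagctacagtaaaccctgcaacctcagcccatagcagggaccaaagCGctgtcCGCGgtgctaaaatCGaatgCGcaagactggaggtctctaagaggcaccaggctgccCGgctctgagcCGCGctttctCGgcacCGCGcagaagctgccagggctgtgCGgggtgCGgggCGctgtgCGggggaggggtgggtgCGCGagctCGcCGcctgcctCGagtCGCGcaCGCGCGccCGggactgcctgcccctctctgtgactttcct
*Lama2* (chr10:27616893-27617192, minus strand): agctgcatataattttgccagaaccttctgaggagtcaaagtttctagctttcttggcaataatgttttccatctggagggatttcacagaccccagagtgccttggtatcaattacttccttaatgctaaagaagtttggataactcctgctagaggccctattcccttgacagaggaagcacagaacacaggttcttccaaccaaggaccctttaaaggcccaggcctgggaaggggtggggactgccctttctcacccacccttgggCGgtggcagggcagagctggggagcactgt
9330111N05Rik (chr13:80963824-80964123, plus strand): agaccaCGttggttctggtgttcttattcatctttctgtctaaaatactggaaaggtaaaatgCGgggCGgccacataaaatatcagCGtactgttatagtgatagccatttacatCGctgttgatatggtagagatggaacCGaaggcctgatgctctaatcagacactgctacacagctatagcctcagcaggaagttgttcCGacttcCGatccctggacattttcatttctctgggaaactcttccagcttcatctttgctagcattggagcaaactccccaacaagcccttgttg
The *Cacna1b* window holds 35 CG, a number reached by 6.95% of 32851 promoter windows of this length. *Gria2* holds 26 (16.9% of windows hold as many), 9330111N05Rik holds 8 (48.7%) and *Lama2* holds 1 (94.6%). The median over all windows is 7, with quartiles of 3 and 20. These windows thus run from nearly the poorest to among the richest in CG. The windows of *Lama2* and 9330111N05Rik lie inside the gene spans given below, not at their outer 5′ ends. Windows at those ends were not read, so the CG numbers of these genes hold for the RefSeq starts only.

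*Ehmt1* (chromosome 2 of mm10, 24789928 to 24919614, minus strand) was read first, as the targeted gene. Its mean level was 21.8 ± 21.7 RPKM (SD over nuclei, n = 69) in WT and 32.6 ± 20.4 RPKM (n = 46) in *Ehmt1*Δ/+ nuclei, 1.49-fold higher. The lowest WT nucleus was at 0, the median at 15.6 and the highest at 85.6 RPKM, and the *Ehmt1*Δ/+ nuclei ran from 0 over a median of 31.1 to 85.5 RPKM. The ranges overlapped over their whole length, and the shift was in the middle. *Ehmt1* was above 0 in 58 of 69 WT nuclei (84.1%, exact interval 73.3% to 91.8%) and in 44 of 46 *Ehmt1*Δ/+ nuclei (95.7%, 85.2% to 99.5%). The same direction was seen in the CreER pair, at 20.9 and 28.3 RPKM, and in the 96-well pair, at 17.5 and 25.8 RPKM. The value counts reads over the whole gene, the deleted part was not read alone, and so it does not check the genotype labels.

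*Cacna1b* encodes the pore-forming subunit of the N-type calcium channel, which triggers transmitter release at synapses. It had the highest ratio of all well detected genes. It lies next to *Ehmt1* on the same strand, from 24603887 to 24763152 on chromosome 2. The mean was 0.564 ± 2.97 RPKM (SD over nuclei) in WT and 13.1 ± 18.2 RPKM in *Ehmt1*Δ/+ nuclei, a log2 ratio of 4.32. *Cacna1b* was above 0 in 5 of 69 WT nuclei (7.25%, exact interval 2.39% to 16.1%), the highest at 22.3 RPKM, and in 25 of 46 *Ehmt1*Δ/+ nuclei (54.3%, 39.01% to 69.1%), with a median of 3.17 and a highest value of 66.96 RPKM. Hence most WT nuclei were at 0 and most *Ehmt1*Δ/+ nuclei were not. The intervals of these shares cover counting error only and are not a test between the pools. In reads, 17 fell on *Cacna1b* in all WT nuclei together (exact Poisson interval 9.90 to 27.2) and 371.5 in all *Ehmt1*Δ/+ nuclei (334.7 to 411.3). Scaled to the pool totals the ratio of reads was 30.2 (18.6 to 52.5). Poisson intervals here and below cover counting error only, since these are amplified reads without molecular identifiers and fall in few nuclei. At an equal 20000 reads per nucleus, with 1 WT nucleus below that depth left out, the expected share was 4.61% in WT and 48.4% in *Ehmt1*Δ/+ nuclei.

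The direction for *Cacna1b* was the same in every pair. The pool means were 0.136 RPKM in iTg and 9.65 RPKM in *Ehmt1*Δ/+; iTg nuclei, and 1.51 RPKM in WT and 4.82 RPKM in *Ehmt1*Δ/+ nuclei of the 96-well plates. A single nucleus at 86.7 RPKM held most of that WT level, which was 0.326 RPKM without it. With the highest nucleus left out of every pool, the log2 ratio of *Cacna1b* was 5.13 in the 384-well pair, 5.49 in the CreER pair and 3.43 in the 96-well pair. In microglia nuclei of the 384-well plates, *Cacna1b* was above 0 in 2 of 16 WT nuclei (mean 5.48 RPKM) and in 5 of 19 *Ehmt1*Δ/+ nuclei (mean 1.43 RPKM). The WT microglia mean rests on 1 nucleus at 85.5 RPKM, and without the highest nucleus of each pool the means were 0.146 and 0.664 RPKM. Of 14 genes within 200 kb of *Ehmt1* that were found in at least 10% of nuclei over the 6 pools, 2 were higher with the deletion in every pair, *Ehmt1* and *Cacna1b* (14.3%, against 15.2% of 15552 genes at this detection level), and only *Cacna1b* passed 2-fold in every pair. Of the same 14 genes, 2 were lower with the deletion in every pair, *Mrpl41* and *Gm38383* (against 1887 of 15552 genes). On the other side of *Ehmt1*, *Pnpla7*, a lysophospholipase gene, was at 15.4 and 19.2 RPKM in the 384-well pair. *Nsmf*, a gene of synapse-to-nucleus signalling, was at 163.9 and 178.6 RPKM. *Mrpl41*, between *Ehmt1* and *Pnpla7*, was at 20.1 and 9.74 RPKM, and was lower by less than 2-fold in the other pairs.

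**Figure D2:**
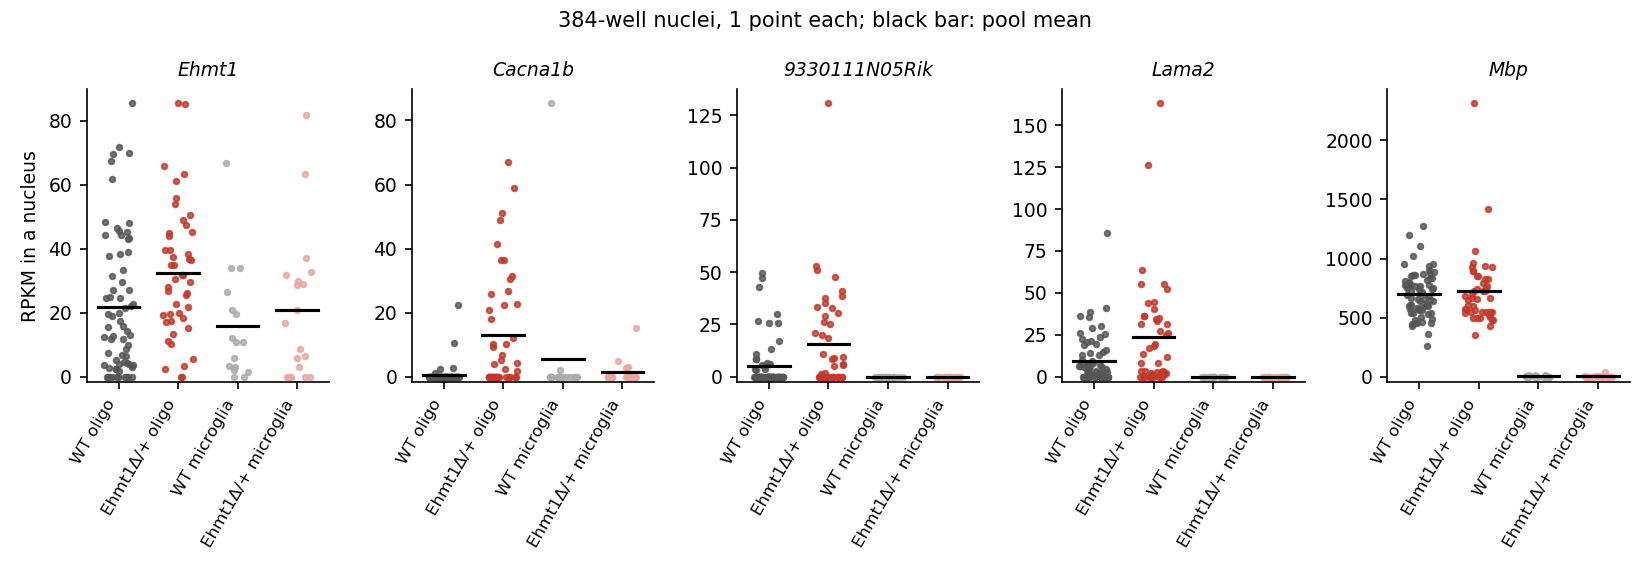
RPKM of 5 genes (y axis) in each 384-well oligodendrocyte and microglia nucleus (points) with the pool mean (black bar). *Cacna1b* is at 0 in most WT oligodendrocyte nuclei and above 0 in 25 of 46 *Ehmt1*Δ/+ nuclei, 9330111N05Rik and *Lama2* are at 0 in all 35 microglia nuclei, and *Mbp* overlaps between genotypes.

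In all 3 pairs, 13 of the 7268 well detected genes passed 2-fold in the same direction, 12 higher (0.165%) and 1 lower (0.0138%) with the deletion. All 13 still did with the highest nucleus of each pool left out for each gene. Of the 12, 3 were under the detection limit of 25% in WT nuclei and passed it through the *Ehmt1*Δ/+ pool (*Cacna1b*, *Gm49375* and *Far2*). *Per3*, the lower gene, was under it in *Ehmt1*Δ/+ nuclei (23.9%, against 30.4% in WT) and passed it through the WT pool. For all of these the filter itself favoured a difference. In the CreER pair 8.74% of the well detected genes were at least 2-fold higher and 2.45% lower, and in the 96-well pair 0.537% were higher and 1.72% lower. The genes chosen as higher in the 384-well pair repeated unevenly. Their direction held in the CreER pair for 64.6% (against 55.8% of all well detected genes) and in the 96-well pair for 49.4% (against 50.8%). Of the genes chosen as lower, 41.3% kept the direction in the CreER pair (against 44.2%) and 58.2% in the 96-well pair (against 49.2%). The share that kept its direction thus lay above that of all genes for the higher genes in the CreER pair and the lower genes in the 96-well pair, and slightly below it in the other 2 cases. The subset that passed 2-fold in both other pairs was 4.94% of the higher genes, against 0.261% of all well detected genes. For the lower genes it was 0.444%, against 0.206% of all. The genes chosen were not matched to all genes for detection, and ratios past 2-fold were more frequent among genes found in few nuclei. Several of the repeated genes also overlap each other on chromosome 13. These shares are therefore a description only.

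*Lama2* (chromosome 10, 26980036 to 27619758), which encodes the alpha2 chain of laminin in the extracellular matrix around cells and whose loss disturbs myelin in the nervous system, was at 9.48 ± 14.5 RPKM in WT and 23.6 ± 32.4 RPKM in *Ehmt1*Δ/+ nuclei. WT nuclei ran from 0 over a median of 3.34 to 85.4 RPKM, and *Ehmt1*Δ/+ nuclei from 0 over 12.8 to 163.4 RPKM. Of the protein-coding genes that repeated, it was the one read most deeply, with 602 reads in WT and 982.5 in *Ehmt1*Δ/+ nuclei, a ratio of 2.26 per read total (2.04 to 2.50). The pool means were 8.85 and 27.9 RPKM in the CreER pair and 11.2 and 27.99 RPKM in the 96-well pair. All 3 control pools thus lay below all 3 pools with the deletion, which the choice of *Lama2* by these ratios favours. *Lama2* was at 0 in each of the 35 microglia nuclei.

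*Gria2*, which encodes the GluA2 subunit that sets the calcium permeability of AMPA receptors, was at 2.84 ± 7.79 RPKM in WT and 5.98 ± 11.8 RPKM in *Ehmt1*Δ/+ nuclei. It was above 0 in 22 of 69 WT (31.9%, exact interval 21.2% to 44.2%) and 29 of 46 *Ehmt1*Δ/+ nuclei (63.04%, 47.5% to 76.8%). These intervals cover counting error only and are not a test between the pools. The means were 3.65 and 7.94 RPKM in the CreER pair and 4.33 and 13.6 RPKM in the 96-well pair. The next named gene along chromosome 3 beyond *Glrb*, *Pdgfc* (81036416 to 81214040), which encodes a platelet-derived growth factor, was too rarely detected for the main set but was higher in each pair as well, at 0.354 and 2.01, 0.193 and 2.56, and 0.893 and 3.40 RPKM. *Glrb*, the glycine receptor beta subunit gene between them, was at 7.36 and 7.45 RPKM in the 384-well pair, 8.27 and 14.3 RPKM in the CreER pair and 31.3 and 30.03 RPKM in the 96-well pair.

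A pair of enzyme genes repeated too. *Far2*, a fatty acyl-CoA reductase that makes fatty alcohols, was at 0.590 ± 1.71 RPKM in WT and 2.61 ± 6.28 RPKM in *Ehmt1*Δ/+ nuclei, and at 0.858 and 2.68 RPKM in the CreER pair and 2.67 and 6.58 RPKM in the 96-well pair. *Man1a*, a Golgi mannosidase that trims N-linked sugars, was at 2.46 ± 6.86 and 8.41 ± 13.7 RPKM, with 4.16 and 9.60 RPKM in the CreER pair and 7.93 and 17.5 RPKM in the 96-well pair. *Far2* rests on 20.5 and 60.5 reads. *Man1a* was read more often, with a log2 ratio of reads per read total of 1.67 (exact Poisson interval 1.38 to 1.98). Unlike *Lama2*, *Man1a* was found in microglia, in 10 of 16 WT and 14 of 19 *Ehmt1*Δ/+ nuclei, with means of 8.07 and 5.89 RPKM.

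The lower gene was *Per3*, a period gene of the circadian clock. It was at 5.55 ± 11.3 RPKM in WT and 2.19 ± 5.33 RPKM in *Ehmt1*Δ/+ nuclei, with a ratio of reads per read total of 0.408 (0.296 to 0.556). The share of nuclei above 0 differed less, at 21 of 69 (30.4%, 19.9% to 42.7%) and 11 of 46 (23.9%, 12.6% to 38.8%). These intervals overlapped, which does not show that the shares were equal. The means were 7.59 and 3.06 RPKM in the CreER pair and 7.54 and 2.52 RPKM in the 96-well pair. The labels give no time of day at which tissue was taken.

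**Figure D3:**
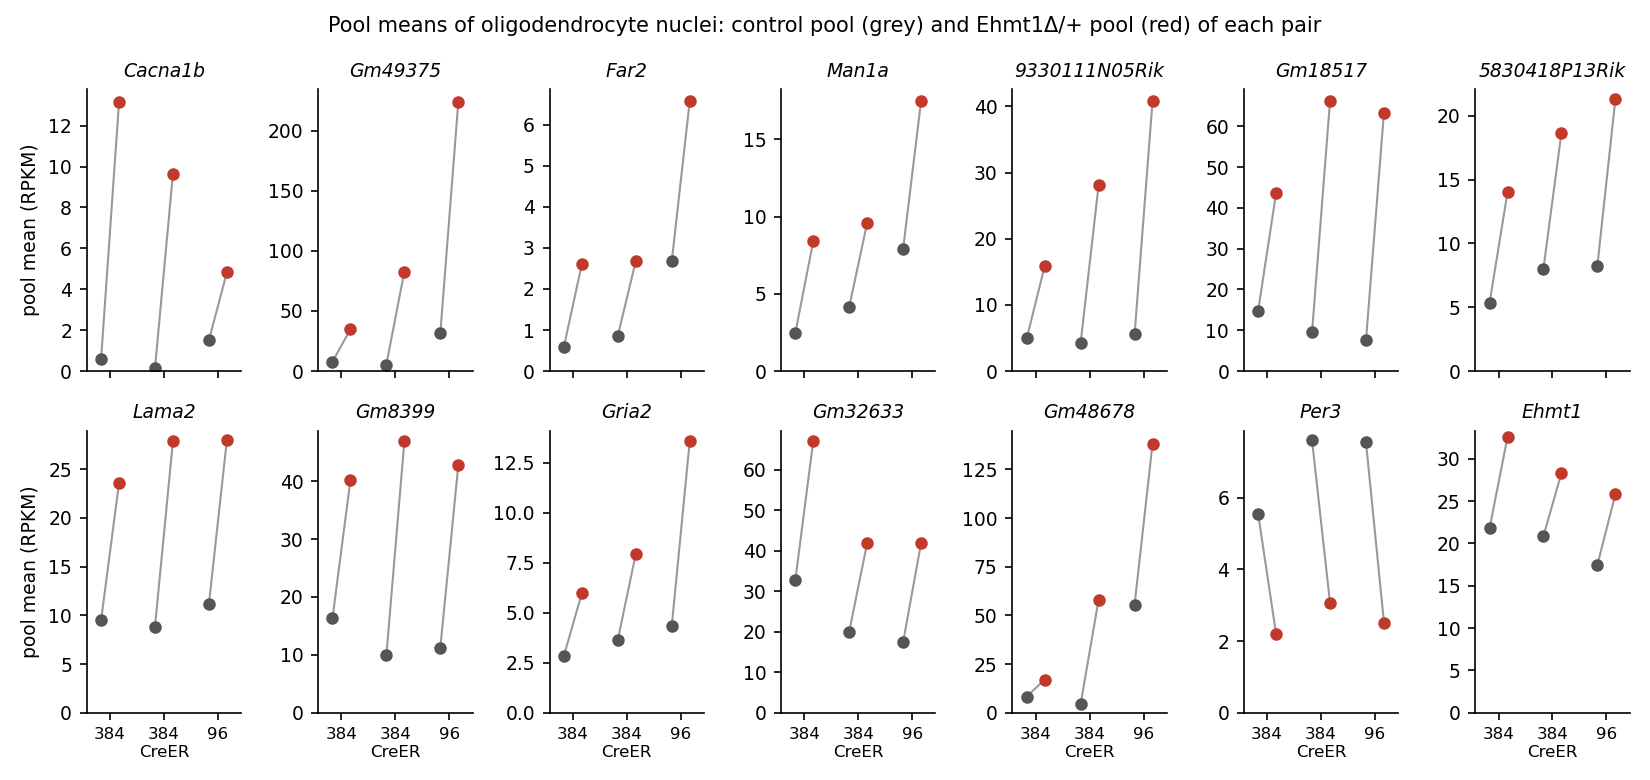
Mean RPKM (y axis, from 0) of the oligodendrocyte nuclei of each pool for the 13 genes past 2-fold in all 3 pairs and for *Ehmt1*, with control pools in grey, pools with the deletion in red, and a line joining the pools of a pair (384, 384-well pair; 384 CreER, CreER pair; 96, 96-well pair). *Per3* is lower in red than in grey in each pair, and the genes of the other panels are higher.

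The remaining genes past 2-fold in all pairs were noncoding or predicted genes, and 4 of them lie together on chromosome 13. 9330111N05Rik (80962888 to 81128864), a noncoding RNA antisense to the 3′ end of *Adgrv1*, was at 4.92 ± 11.3 RPKM in WT and 15.9 ± 24.1 RPKM in *Ehmt1*Δ/+ nuclei, and was found in 19 of 69 (27.5%, exact interval 17.5% to 39.6%) and 26 of 46 nuclei (56.5%, 41.1% to 71.1%). *Gm49375* was at 7.81 ± 19.8 and 34.7 ± 45.5 RPKM, *Gm18517* at 14.8 ± 39.6 and 43.6 ± 66.3 RPKM, and *Gm8399* at 16.3 ± 42.4 and 40.2 ± 58.1 RPKM. Elsewhere, 5830418P13Rik (chromosome 9) was at 5.32 and 14.0 RPKM, *Gm32633* (chromosome 7) at 32.7 and 67.2 RPKM, and *Gm48678* (chromosome 12) at 8.29 and 17.1 RPKM.

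All genes of the chromosome 13 run were then read, whether or not well detected. *Adgrv1* (81095068 to 81633154, minus strand) encodes a very large adhesion receptor that is mutated in Usher syndrome with hearing loss and, in mice, in sound-induced seizures. Within 200 kb on either side, 13 genes were found in at least 10% of nuclei over the 6 pools, and 9 of these were at least 2-fold higher with the deletion in all 3 pairs (69.2%, against 0.334% of all 15552 genes at this detection level). The window was chosen after these values were seen. Among the genes so detected, the 9 follow each other without a gap in the order 9330111N05Rik, *Gm49375*, *Gm48568*, *Gm48549*, *Gm4813*, *Gm8399*, *Gm25241*, *Gm18517* and *Adgrv1*. *Adgrv1* was above 0 in 2 of 69 WT (mean 0.0576 RPKM) and 11 of 46 *Ehmt1*Δ/+ nuclei (mean 0.455 RPKM), and its means were 0.0735 and 1.21 RPKM in the CreER pair and 0.354 and 2.45 RPKM in the 96-well pair. *Gm48549* was listed at 0 in the iTg pool and at 49.9 RPKM in the *Ehmt1*Δ/+; iTg pool, so its bar in the plot of this region depends on the 0.1 RPKM that was added.

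The flanking genes were lower with the deletion in the 384-well and 96-well pairs, but 3 of the 4 were higher in the CreER pair. *Arrdc3*, an arrestin-domain gene upstream, was at 61.7 and 53.3 RPKM in the 384-well pair, 60.6 and 107.9 RPKM in the CreER pair and 153.6 and 139.2 RPKM in the 96-well pair. *Lysmd3* was at 1.57 and 1.53, 2.10 and 4.74, and 5.83 and 4.87 RPKM in the same order of pairs. *Cetn3*, a centrin gene, was at 1.89 and 0.706, 0.403 and 1.55, and 6.31 and 6.18 RPKM. *Mblac2* was at 1.77 and 1.69, 4.14 and 1.38, and 5.14 and 3.23 RPKM. Of the genes of the run, 9330111N05Rik, *Gm49375*, *Gm18517*, *Gm48568*, *Gm4813* and *Adgrv1* were at 0 in all 35 microglia nuclei. *Gm8399* was above 0 in 5 of 16 WT and 2 of 19 *Ehmt1*Δ/+ microglia nuclei, and *Gm25241* in 1 of the 35. The span of 9330111N05Rik covers the other predicted genes and overlaps the 3′ end of *Adgrv1*, and whether counting used the strand is not given in the sources used here, so reads of these overlapping genes cannot be told apart and the 9 genes are not 9 independent measurements.

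**Figure D4:**
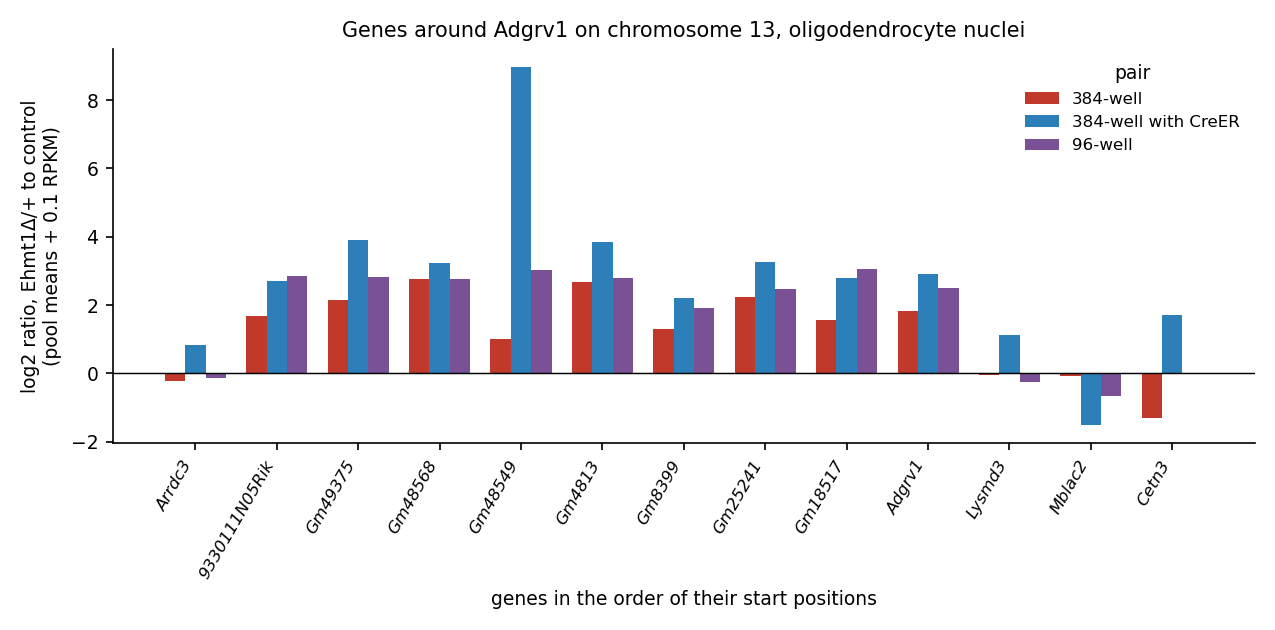
Log2 ratio (y axis, from pool means + 0.1 RPKM) of pools with the *Ehmt1* deletion to control pools for 13 genes around *Adgrv1*, in the order of their start positions (x axis), with 1 bar for each pair. The 9 genes from 9330111N05Rik to *Adgrv1* are above 0 in all pairs, between 1.02 and 8.97, while the flanking *Arrdc3*, *Lysmd3*, *Mblac2* and *Cetn3* are below 0 in at least 1 pair.

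The replicated test asked whether any gene differed with the deletion over the 6 oligodendrocyte pools, with the pair as a block (limma on log2 pool means, 2 residual degrees of freedom before its moderation across genes). Of 9747 genes tested, none passed an adjusted p of 0.05 in either direction (0% higher, 0% lower), and the smallest adjusted p was 0.229. Before adjustment, 3.16% of the genes were higher and 2.07% lower at a p under 0.05. Among the 10 genes with the smallest p, 8 belong to the chromosome 13 run, led by *Gm48568* with a log2 difference of 2.92 ± 0.23 (SE), and all 8 were chosen in part by the same values as above. *Adgrv1* was at 2.41 ± 0.28 (adjusted p = 0.426), *Lama2* at 1.42 ± 0.22 (0.631), *Far2* at 1.59 ± 0.24 (0.631) and *Man1a* at 1.35 ± 0.24 (0.851). *Cacna1b* was at 3.77 ± 0.70 (0.851), *Gria2* at 1.26 ± 0.24 (0.851) and *Ehmt1* at 0.53 ± 0.21 (0.851). The fit of the CreER and 96-well pairs alone, on the same genes, called 7 genes, all higher and all of the chromosome 13 run (*Gm49375*, *Gm48568*, *Gm4813*, *Gm18517*, 9330111N05Rik, *Gm25241* and *Adgrv1*, limma adjusted p from 0.016 to 0.020), and each of the 7 was higher in the 384-well *Ehmt1*Δ/+ pool too. Detection over all 6 pools had chosen the genes tested, and 5 of the 7 were above 0 in fewer than 25% of nuclei on the average of the control pools, so they entered the test through the pools in which they were high and their calls are given as a description only. For *Adgrv1* the average was 12.4% in control pools and 43.4% in pools with the deletion.

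Named genes that ranked high in this fit outside the run included *Itih3*, an inter-alpha-trypsin inhibitor heavy chain that binds hyaluronan, at 2.24 and 6.97 RPKM in the 384-well pair, 5.58 and 14.9 RPKM in the CreER pair and 3.48 and 10.2 RPKM in the 96-well pair. *Tmem132d*, a membrane protein gene of oligodendrocytes and neurons, ranked first among the lower genes, at 3.68 and 0.974 RPKM, 4.86 and 1.08 RPKM, and 3.60 and 1.17 RPKM, a log2 difference of -1.81 ± 0.23. Each set of 3 control pools lay apart from the 3 pools with the deletion. The other lower genes by the naming rule were *Per3* (-1.38 ± 0.22), *Atxn1* (-1.14 ± 0.22), a transcriptional regulator, *Scpep1* (-1.08 ± 0.21), a carboxypeptidase, and *Ube2s* (-1.06 ± 0.21), a ubiquitin-conjugating enzyme. None of these passed the adjusted threshold.

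Outside the genes that repeated, the named genes with the highest ratios in the 384-well pair did not pass 2-fold in both of the others. *Zfp108*, *Tubb4b*, *Vdac1*, *Psmd13*, *Catsper2* and *Gars* were above 0 in fewer than 25% of WT nuclei. They passed the detection limit only through the *Ehmt1*Δ/+ pool. *Zfp108*, a zinc finger gene, was at 1.95 and 13.6 RPKM here, 7.498 and 4.62 RPKM in the CreER pair and 3.60 and 2.62 RPKM in the 96-well pair. *Tubb4b*, a beta-tubulin gene, was at 3.65 and 18.7 RPKM here, and at 10.7 and 4.54 RPKM and 5.61 and 4.37 RPKM there, so both genes stood in the opposite order in the other pairs. *Vdac1*, the channel of the outer mitochondrial membrane, was at 9.30 and 38.9 RPKM here, 8.92 and 19.3 RPKM in the CreER pair, and 15.5 and 10.4 RPKM in the 96-well pair. *Psmd13*, a proteasome subunit gene, was at 2.59 and 11.3 RPKM, *Catsper2*, a sperm ion channel gene, at 4.23 and 16.9 RPKM, and *Nalcn*, the sodium leak channel gene, at 4.21 and 15.9 RPKM, and these 3 were higher with the deletion in the other pairs by less than 2-fold except for *Catsper2* in the CreER pair, at 3.37 and 8.84 RPKM. *Gars*, the glycyl-tRNA synthetase gene, at 2.48 and 9.90 RPKM, was lower with the deletion in both other pairs. *Snhg14*, the host transcript of small nucleolar RNAs in the Prader-Willi and Angelman region, was at 0.668 and 2.78 RPKM, with 1.66 and 2.30 RPKM and 4.37 and 4.86 RPKM in the other pairs.

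The lowest ratios were likewise those of modestly detected genes. *Rdh5*, *Mid1ip1*, *Hif1a*, *Chtf8*, *Mfsd14b*, *Reep3*, *Ccser1* and *Zfand3* were above 0 in fewer than 25% of *Ehmt1*Δ/+ nuclei. They passed the detection limit only through the WT pool. *Rdh5*, a retinol dehydrogenase gene, was at 12.8 ± 27.9 RPKM in WT and 2.05 ± 6.13 RPKM in *Ehmt1*Δ/+ nuclei, above 0 in 23 of 69 and 9 of 46. *Mid1ip1*, an activator of fatty acid synthesis through acetyl-CoA carboxylase, was at 14.8 and 2.58 RPKM. *Hif1a*, the oxygen-sensing transcription factor gene, was at 3.90 and 0.944 RPKM, and *Keap1*, the repressor of the antioxidant factor Nrf2, at 9.34 and 2.42 RPKM. In the CreER pair *Hif1a* was at 3.89 and 4.28 RPKM and *Mid1ip1* at 6.64 and 9.64 RPKM, so both stood in the opposite order there, and in the 96-well pair they were at 6.54 and 6.99 RPKM and at 8.65 and 5.52 RPKM, so that *Mid1ip1* was lower again, while *Keap1* was at 5.90 and 4.01 RPKM there and 3.74 and 3.04 RPKM in the 96-well pair. *Grm7*, a metabotropic glutamate receptor gene and the most abundant of this group, was at 29.3 ± 44.7 and 8.02 ± 13.2 RPKM, and lower in the other pairs by less (33.9 and 21.7, 19.9 and 13.9 RPKM). *Reps2*, an endocytosis gene, was at 4.68 and 1.15 RPKM, *Rpl4*, a ribosomal protein gene, at 9.89 and 2.38 RPKM, and *Chtf8*, a replication factor gene, at 5.46 and 1.47 RPKM, and the same order was seen for these 3 in both other pairs. *Mfsd14b* (5.76 and 0.938 RPKM) and *Reep3* (3.57 and 0.755 RPKM), an endoplasmic reticulum gene, were higher with the deletion in the CreER pair, and *Ccser1* (4.67 and 1.25 RPKM) and *Zfand3* (6.53 and 1.62 RPKM) complete the 12.

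Of 17 well detected myelin protein genes none differed by 2-fold in either direction (against 3.34% and 3.1% of all genes), and the median log2 ratio was -0.02. *Mbp*, myelin basic protein, was at 700 ± 190 RPKM in WT and 726 ± 311 RPKM in *Ehmt1*Δ/+ nuclei, with lowest, median and highest nuclei at 258.6, 688 and 1272 and at 349, 667 and 2318 RPKM. *Mag*, a glycoprotein that faces the axon, was at 1056 ± 258.8 and 1110 ± 366 RPKM, and *Mog*, a protein of the outer myelin surface, at 277.7 ± 123.8 and 310 ± 204.1 RPKM. The nuclei of both genotypes overlapped over nearly the whole range. The same list had a median of 0.50 in the CreER pair and of -0.27 in the 96-well pair, so the pairs differed among themselves by more than the 384-well pools did.

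Among 23 well detected enzymes of myelin lipids the median log2 ratio was 0.08. Of these, 1 gene was at least 2-fold higher and 1 lower (against 3.34% and 3.1% of all genes). The lower gene was *Degs1*, which makes ceramide from its precursor, at 6.88 and 2.59 RPKM and, in the 96-well pair, at 36.2 and 21.5 RPKM, but at 7.52 and 11.9 RPKM in the CreER pair. The abundant members differed little. *Enpp2*, the autotaxin gene, was at 340 and 360 RPKM, *Fa2h*, which hydroxylates the fatty acids of galactolipids, at 179.1 and 164.3 RPKM, and *Scd2*, a desaturase, at 140.96 and 113.5 RPKM.

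The other oligodendrocyte lists held few genes past 2-fold, as did all genes of such detection (0.826% of the best detected). None of 14 well detected transcription factors of the lineage differed by 2-fold (against 3.34% and 3.1% of all genes), with log2 ratios from -0.80 to 0.61 and a median of 0.05. *Sox10* was at 275.9 and 270.99 RPKM and *Myrf*, the activator of myelin genes, at 258.6 and 241.9 RPKM. None of 18 genes of the node of Ranvier and of contact with the axon passed 2-fold (*Hapln2*, 630 and 609 RPKM; *Cntn2*, 522 and 500 RPKM), nor did any of 26 cytoskeleton and transport genes (*Tubb4a*, 614 and 555 RPKM), any of 19 genes of metabolic support and ion transport (*Trf*, the transferrin gene, 258.05 and 253.7 RPKM) or any of 22 receptors and signalling genes (*Erbb3*, the neuregulin receptor, 108.9 and 146.2 RPKM). Neither the 9 well detected genes of committed and newly formed cells nor the 16 of mature cells held one past 2-fold. *Enpp6*, a marker of newly formed oligodendrocytes, was at 8.57 and 12.7 RPKM, and *Car2*, the carbonic anhydrase of mature cells, at 232.4 ± 153.65 and 145.5 ± 103.2 RPKM, with 159.5 and 155.6 RPKM in the CreER pair and 255.1 and 230.1 RPKM in the 96-well pair. Of 12 RNA-binding and splicing genes, only *Celf2* passed 2-fold, at 0.412 and 0.978 RPKM (against 3.34% of all genes higher). *Qk*, the quaking gene that guides splicing in oligodendrocytes, was at 76.4 and 76.8 RPKM.

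Stress genes gave a mixed picture. *Sgk1*, a kinase gene induced by glucocorticoids and by serum, was at 31.4 ± 44.8 RPKM in WT and 92.3 ± 102.2 RPKM in *Ehmt1*Δ/+ nuclei. WT nuclei ran from 0 over a median of 12.3 to 218.75 RPKM and *Ehmt1*Δ/+ nuclei from 0 over 58.2 to 383 RPKM, which overlap although the middle differed. *Sgk1* was at 152.5 and 349 RPKM in the CreER pair and 294.2 and 344 RPKM in the 96-well pair, so it was higher with the deletion each time, and the control pools themselves spanned a wider range than any pair. *Ddit4*, an inhibitor of mTOR signalling that glucocorticoids and low oxygen induce, was at 25.2 ± 42.1 and 50.8 ± 66.3 RPKM, with 63.9 and 92.1 RPKM in the CreER pair and 38.7 and 50.3 RPKM in the 96-well pair. The log2 ratio of *Ddit4* was 1.01 over all nuclei and 0.66 without the 25% of nuclei richest in mitochondrial reads. *Plin4*, a lipid droplet coat gene, was lower here, at 47.96 and 23.4 RPKM, but higher with the deletion at 40.1 and 60.5 RPKM and at 79.5 and 135.2 RPKM in the other pairs. *Hsp90ab1*, a chaperone gene, was at 53.5 and 53.9 RPKM. Besides *Ddit4*, none of the 8 well detected immediate early and heat shock genes passed 2-fold (against 3.34% and 3.1% of all genes). The median log2 ratio of these 8 genes was 0.01 here, -0.65 in the CreER pair and -0.54 in the 96-well pair. *Ddit4* thus stood against the median of its list in the other pairs. In the fit of 6 pools, *Sgk1* (unadjusted p = 0.0221 in limma, adjusted p = 0.851) was 1 of 6 members of a list of disease-associated genes. *Ddit4* was 1 of 8 members of the immediate early and heat shock list. Each was the one member of its list higher at an unadjusted p under 0.05, against 3.16% of all genes. Of 4 well detected disease-associated genes, 1 was at least 2-fold higher and 1 lower in the 384-well pair (against 3.34% and 3.1% of all genes).

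*Casp1*, the inflammatory caspase gene that the study followed in neurons, was at 0 in all 69 WT and all 46 *Ehmt1*Δ/+ oligodendrocyte nuclei, counts that allow shares of nuclei with a read of up to 4.35% and 6.52% (3 counts of the total), and at this depth not a limit on nuclei that express the gene. Microglia of the same plates held means of 11.01 and 12.1 RPKM, while the share of microglia nuclei above 0 was 43.75% in WT and 26.3% in *Ehmt1*Δ/+. None of 4 well detected inflammasome and interleukin genes passed 2-fold (*Il18*, 22.1 and 28.9 RPKM), and neither did any well detected interferon-pathway member (*Stat2*, 12.6 and 9.39 RPKM). Over all genes, 3.34% were at least 2-fold higher and 3.1% lower.

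The partners of GLP and the other histone H3 lysine 9 factors varied around equal levels. *Ehmt2*, the G9a gene, was at 54.8 ± 47.3 RPKM in WT and 48.3 ± 41.5 RPKM in *Ehmt1*Δ/+ nuclei, and *Wiz*, a zinc finger partner of the complex, at 14.5 ± 14.6 and 8.79 ± 10.7 RPKM. None of the 5 well detected complex members passed 2-fold, and their log2 ratios ran from -0.71 to 0.86 with a median of 0.44. Of 10 writers and readers of the mark, 1 was at least 2-fold higher and 1 lower (against 3.34% and 3.1% of all genes). *Cbx5* (heterochromatin protein HP1 alpha) was the higher, at 1.81 and 3.89 RPKM, and *Cbx3* (HP1 gamma) the lower, at 3.99 and 1.81 RPKM. In the 96-well pair these genes were at 12.3 and 10.1 and at 5.49 and 3.95 RPKM, both lower with the deletion by less than 2-fold, and in the CreER pair at 0.942 and 4.23 and at 1.81 and 4.28 RPKM, both higher. *Setdb1*, another methyltransferase of this lysine, was at 16.8 and 16.6 RPKM. None of 9 demethylase genes passed 2-fold, led by *Kdm4b* at 51.2 and 50.5 RPKM. Of the 19 genes with a row in the tables among those known to be repressed by G9a and GLP, chiefly germline genes, none was well detected, and 12 were at 0 in both pools.

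Synaptic and axonal genes were the list, apart from mitochondrial RNAs, with the most members past 2-fold. Of 9 well detected members, 3 were at least 2-fold higher, among them *Cacna1b* and *Gria2*, and none lower (against 3.34% and 3.1% of all genes). The list median, however, was -0.04. In the limma fit of 6 pools, 4 of 10 members were higher and 1 lower at an unadjusted p under 0.05, against 3.16% and 2.07% of 9747 genes. Among the higher were *Nlgn1*, *Gria2* and *Cacna1b*, and the lower member was *Cacna1a* (log2 difference -1.02 ± 0.30). The list was chosen with earlier results of these data known. *Cacna1b* passed the detection limit only through the pools with the deletion, so these counts are a description only. The neuron markers were lower with the deletion in the 384-well and 96-well pairs and higher in the CreER pair. Their sum in a nucleus ran from 0 over a median of 10.7 to 164.35 RPKM in WT and from 0 over 6.32 to 86.4 RPKM in *Ehmt1*Δ/+ nuclei, and their summed means were 15.6 and 29.2 RPKM in the CreER pair and 122.95 and 35.5 RPKM in the 96-well pair. *Syt1*, a vesicle protein gene and the only neuron marker well detected, was at 2.16 and 0.819 RPKM, *Snap25* was above 0 in 26.1% of WT and 19.6% of *Ehmt1*Δ/+ nuclei, and the log2 ratio of *Cacna1b* was 4.19 without the nuclei richest in neuron marker reads. The ion channel gene *Hcn2*, which carries the hyperpolarization-activated current, went the other way, at 44.4 ± 64.96 and 17.7 ± 34.8 RPKM, 46.02 and 23.9 RPKM, and 53.9 and 28.5 RPKM. *Kirrel3*, a synaptic adhesion gene, was at 27.3 ± 54.9 and 13.9 ± 28.4 RPKM, 21.6 and 8.46 RPKM, and 15.2 and 7.88 RPKM. Both were named after their values were seen.

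Nuclear noncoding RNAs were mostly level. *Malat1*, the most abundant, was at 3111 ± 922 RPKM in WT and 3076 ± 726 RPKM in *Ehmt1*Δ/+ nuclei, and *Neat1* at 174.96 and 165.6 RPKM. Of 12 well detected members only *Rian*, of the imprinted *Dlk1*-*Dio3* region, passed 2-fold, at 0.374 and 1.02 RPKM (against 3.34% of all genes higher). *Meg3* of the same region was at 4.54 and 8.44 RPKM. In the 96-well pair both were lower with the deletion, at 0.259 and 0.135 RPKM and at 0.960 and 0.604 RPKM.

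The mitochondrially encoded RNAs were higher in the 384-well *Ehmt1*Δ/+ nuclei as a group. Of 13 well detected members 11 were at least 2-fold higher (against 3.34% of all genes) and none lower, with a median log2 ratio of 1.38. *mt-Rnr2*, the large ribosomal RNA, was at 800 ± 983 RPKM in WT and 2571 ± 2725 RPKM in *Ehmt1*Δ/+ nuclei, and *mt-Nd2*, a subunit of complex I, at 21.5 ± 41.3 and 89.4 ± 116.1 RPKM. The summed level of a nucleus ran from 21.2 over a median of 1465 to 24783 RPKM in WT and from 14.9 over 5817 to 39580 RPKM in *Ehmt1*Δ/+ nuclei, so the groups overlapped throughout. In the other pairs the order was the opposite, with medians of 5556 in iTg and 2713 RPKM in *Ehmt1*Δ/+; iTg nuclei and of 3194 and 1008 RPKM in the 96-well pair, and all 13 members had the opposite sign in both. Microglia of the 384-well plates moved with the oligodendrocytes, from a summed mean of 12557 to 43263 RPKM. These transcripts are made in mitochondria, outside the nucleus, and how much cytoplasm came with each sorted nucleus was not measured. Their part in the other results was not tested beyond 2 recalculations. With read totals taken without them, the log2 ratio of *Cacna1b* was 4.33, and without the 25% of nuclei richest in them it was 3.81. Of the nuclear genes of the respiratory chain, 4 were well detected, with a median log2 ratio of -0.67 in the 384-well pair, 0.27 in the CreER pair and -0.77 in the 96-well pair, so they stood opposite to the mitochondrial RNAs in the first 2 pairs only. *Atp5b*, an ATP synthase subunit gene, was at 13.4 ± 17.3 and 6.15 ± 9.62 RPKM in the 384-well pair.

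**Figure D5:**
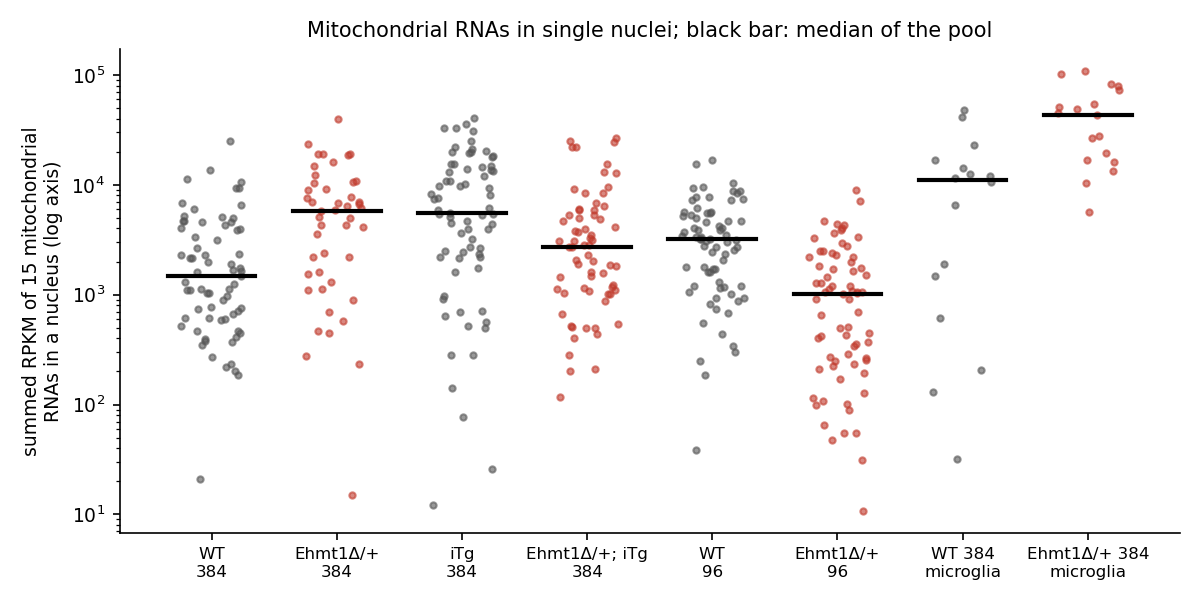
Summed RPKM of 15 mitochondrial RNAs in each nucleus (y axis, log scale) by pool, with control pools in grey, pools with the deletion in red and the pool median as a black bar. The median is higher in the *Ehmt1*Δ/+ pool for 384-well oligodendrocytes (1465 and 5817) and microglia, and lower in the CreER pair (5556 and 2713) and the 96-well pair (3194 and 1008).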

How the data were processed

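Nuclei of mouse cortex were collected on an iodixanol gradient, sorted by DAPI and read by RamDA-seq, which copies full-length total RNA with random primers. After trimming, the authors aligned reads to mm10 (HISAT2 2.0.4), discarded poor nuclei, counted with featureCounts (Subread 1.5.0) and named cell types from marker genes of UMAP clusters. Versions come from the submitters' processing notes. A table of RPKM was deposited for each plate format, with 52636 genes, and these values were the starting point. Whole reads gave 74.1% of the values above 0, and the rest came in steps of a hundredth of a read (tolerance 0.02 hundredths). Such steps are what splitting reads with several matches gives, so genes with close copies may share reads. No counts were used as the unit, so no count test was run. The 1775 columns of other nuclei were not used, apart from the number of nuclei by label.

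The level of a pool is its mean RPKM over nuclei, and log2 ratios were taken after adding 0.1 RPKM. Read totals were recovered from the steps of the RPKM values, and reads summed over a pool were given exact Poisson intervals at 95%. Shares have exact Clopper-Pearson intervals, and a share of 0 the limit that 3 counts allow. Reads could not be recovered for 1005 of 7268 well detected genes, whose identifier had no match in GENCODE M21, the source of coordinates. The fit of 6 pools used limma 3.58.1 in R 4.3.3 with the pair as a covariate and Benjamini-Hochberg adjustment at 0.05, two-sided; its p-values measure only the spread between pools, which may be technical. Its genes were above 0 in at least 25% of nuclei on the average of the 6 pools. In simulated data for this fit with 9747 genes and 50 genes per size, the calls were 1 for a simulated log2 change of 1, then 25 for 2, 40 for 3 and 37 for 4, and 3 unchanged genes were called too, so 0 calls say little about changes of 2-fold. The remaining steps ran in Python 3.11.15 with SciPy 1.17.1, numpy 2.4.6, pandas 2.3.3 and matplotlib 3.10.9.

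Named were *Ehmt1*, the 12 highest and 12 lowest well detected genes with a symbol of their own (1 and 3 predicted genes or similar passed over), 5 genes in each direction by p in the fit, up to 6 abundant members and every member past 2-fold of 29 gene lists (abundant members are given as examples), and *Casp1*. Some genes that this rule names are not reported here. Of lists with no value in the text, inhibitory neuron genes had 1 well detected member, *Erbb4*, at 9.55 and 10.1 RPKM. The nuclei compared and the lists were chosen with earlier results of these data known. Other pseudocounts, detection limits, scalings, subsets of nuclei and pairs left out were tried.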

Additional observations from a re-analysis of the deposited data

Results flagged for a closer look

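The mitochondrial RNAs differed between the genotypes in opposite directions in different pairs. The median log2 ratio of the deletion to its control over 13 well detected members was 1.38 in the 384-well pair, -0.91 in the CreER pair and -1.38 in the 96-well pair. All 13 members had the opposite sign in both other pairs. The difference between pairs was not tested. In the 384-well pair plate code and genotype cannot be told apart. Both pools of the CreER pair carry the plate code of the 384-well *Ehmt1*Δ/+ pool. The median summed level of a nucleus was 1465 RPKM in the 384-well WT pool. In the pools of the other plate code it was 5817 (*Ehmt1*Δ/+), 5556 (iTg) and 2713 RPKM (*Ehmt1*Δ/+; iTg). A part of plate code in these levels was not tested.

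Microglia nuclei, which entered no comparison of genotypes here other than as a reference, showed the same order as the oligodendrocytes of their plates. The summed mean of the mitochondrial RNAs was 12557 RPKM in 16 WT and 43263 RPKM in 19 *Ehmt1*Δ/+ microglia nuclei.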

How the results depend on the processing

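No paired analysis was possible because the replicate numbers only name nuclei in accession order and tie no nucleus of 1 genotype to one of the other. The fit of 6 pools pairs pools by plate format and driver, not by number. No named log2 ratio of at least 2-fold, and no named difference in the fit of 6 pools, changed sign under any of the alternatives run. Changes of sign in smaller ratios were not counted. Over all log2 ratios, 1434 recalculations stayed within counting error and the others moved beyond it. For genes without recovered reads a fixed margin took the place of counting error. The share of genes past 2-fold rested on the pseudocount and on the detection limit. The 3.34% of genes higher and 3.1% lower in the 384-well pair became 1.88% and 1.86% with 1 RPKM added, 7.05% and 7.82% with detection in at least 10% of nuclei (11719 genes), 1.19% and 0.856% with at least 50% (3622 genes), and 17.4% and 21.7% with no filter (24360 genes). The 0.165% higher in all 3 pairs (12 genes) became 0.213%, 0.0552% and 0.677% under the same 3 detection limits. The 0.0138% lower (1 gene) became 0.0512%, 0% and 0.599% under these, and 0.0275% (2 genes) with 0.01 RPKM added, without the nuclei richest in neuron marker reads, and without those of the lowest and highest read totals. Of settings chosen after seeing the data, leaving out the nuclei richest in mitochondrial reads gave 4.75% lower and 0.0275% lower in all pairs, and leaving out nuclei of fewer than 30000 reads gave 0.0275%. Leaving out the highest nucleus of each pool for each gene, also chosen after seeing the data, kept all 13 genes past 2-fold in all pairs.

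In the fit of 6 pools 0 genes were called. With 1 RPKM added limma called 1 gene higher, *Gm48568* (adjusted p = 0.0352), and with its trend option 3 higher, *Gm48568* (0.00418), *Gm4813* and *Gm25241* (both 0.0307). Leaving out 1 pair at a time gave between 0 and 7 genes higher and 0 lower, the 7 without the 384-well pair. The low depth limits the shares. At 20000 reads per nucleus, 27 of 32 shares stayed within their interval and 5 moved, among them *Far2*, whose shares of 17.4% and 34.8% became 6.99% and 18.9%.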

Other observations

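*Lama2* was not the only transcript of its neighbourhood with higher values in every pair. *Gm48084*, an antisense transcript at the 3′ end of *Lama2* on chromosome 10 (26949740 to 26982036), was at 1.038 and 4.63 RPKM in the 384-well pair, 0.149 and 2.81 RPKM in the CreER pair and 0.779 and 2.41 RPKM in the 96-well pair. It overlaps *Lama2*, so reads of the overlap cannot be told apart.

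The CreER pair also differed from the 384-well pair in breadth. The *Ehmt1*Δ/+; iTg nuclei held a median of 5859 detected genes against 4586 in iTg nuclei at medians of 54250 and 54877 reads, and at an equal 20000 reads 3575 against 2973 genes, while the 384-well pair was at 3163 in WT and 3033 in *Ehmt1*Δ/+ nuclei. The part of this difference in the 635 genes at least 2-fold higher in the CreER pair was not tested.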
